A study of Oryctolagus cuniculus with 12 samples.

Results

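The circadian clock genes described here are 10 genes of the rabbit, ARNTL, CLOCK, NR1D1, NR1D2, PER1, PER2, CRY1, CRY2, BHLHE40 and TEF. They were taken by gene name from a table of 29076 genes measured by RNA sequencing in 12 libraries of rabbit cornea, the clear front tissue of the eye. All 10 names were found, and all 10 genes were abundant enough to be tested.

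The circadian clock is a feedback loop of transcription that runs in most cells with a period of about a day. ARNTL, also called BMAL1, pairs with CLOCK and the pair switches on the PER, CRY and NR1D genes together with BHLHE40 and TEF. PER and CRY proteins then hold back the ARNTL and CLOCK pair, and the NR1D proteins, also called REV-ERBs, repress ARNTL itself, so that in many mouse tissues ARNTL and NR1D1 peak at opposite times of day. In the mouse the corneal epithelium has a clock of its own, and cell division there follows the time of day.

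The libraries fall into 4 groups of 3, labelled BL (blue light), GL, RL and Ctrl (control). What GL and RL abbreviate is not given. Every rabbit was 6 months old on a normal diet, and each of the 12 libraries, those of Ctrl included, carries the same note of 6 weeks under light. The sources used here give no genotype, wavelength, intensity or hour of collection. They also leave unsaid whether each library is a different animal, so a p-value here reflects only the variation among these libraries, part of which may be technical.

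Estimated counts summed to between 40.9 and 64.7 M (mega) per library. The totals were 40.9 to 58.8 M in BL, 61.6 to 64.7 in GL, 45.9 to 62.4 in RL and 44.4 to 56.9 in Ctrl. Totals in GL did not overlap with those in BL or Ctrl. Over the libraries, the r of a member's level with log2 of this total ran from −0.63 for CRY1 to 0.53 for TEF. Every member had at least 662 counts in every library. The corneal epithelial markers were all found and summed to 26587 to 34749 CPM (counts per mega-count of the library) in BL, 41503 to 42209 in GL, 30510 to 46618 in RL and 26946 to 34866 in Ctrl. KRT12 alone made up 14397 to 27608 CPM. PAX6, on the same list, was lower in GL (403, 323 and 351 CPM) than in Ctrl (464, 413 and 443), while the others were higher. Stromal markers summed to 29814 to 39938 CPM in BL, 39234 to 41113 in GL, 29094 to 44267 in RL and 29615 to 34739 in Ctrl. The libraries also fell into 2 sets by their number of rare transcripts: 5 of them (all BL, RL 1 and Ctrl 1) had 2389 to 2563 genes at counts of 1 to 20, and the other 7 had 767 to 1461. Retinal genes stood highest in GL 3, BL 1 and Ctrl 2. Lens genes summed to 2072 to 15818 CPM in BL, 768 to 3546 in GL, 652 to 3261 in RL and 5393 to 8656 in Ctrl. The part of other eye tissue in the results below was not tested. In bulk tissue, fewer cells of a type and less RNA per cell cannot be told apart.

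Levels of different genes were compared in FPKM, which is scaled by gene length. NR1D2, a REV-ERB repressor, stood highest at 75.4 ± 13.7 FPKM over the 12 libraries (mean ± SD, n = 12), and PER2, a period protein that holds back the activators, stood lowest at 6.87 ± 2.63. Between them came BHLHE40 at 56.9 ± 15.7, TEF at 41.1 ± 13.2, NR1D1 at 32.3 ± 13.3, PER1 at 27.0 ± 9.33 and CLOCK at 22.5 ± 2.38 FPKM. CRY2 at 17.1 ± 3.40, CRY1 at 16.6 ± 2.94 and ARNTL at 14.0 ± 3.14 FPKM followed. CLOCK exceeded CRY2, next in the order, in all 12 libraries. Neighbours that exchanged places often were NR1D1 over PER1 and CRY2 over CRY1, each in 7 of 12 libraries, and CRY1 over ARNTL in 8 of 12.

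The members also differed in how much they varied. NR1D1 had an SD of 0.69 log2 CPM over the 12 libraries, larger than that of 93.3% of 11493 genes with a mean of at least 5 CPM, whereas CLOCK had 0.18, larger than that of 10.9%. The median gene had 0.32. The share of the variance in log2(CPM + 1) that lay between groups was 75.7% for ARNTL, 70.1% for TEF, 67.8% for CRY1 and 59.0% for NR1D1, against 10.4% for CLOCK and 13.0% for CRY2. These shares are descriptions, with no test and no share over all genes beside them.

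**Figure D1:**
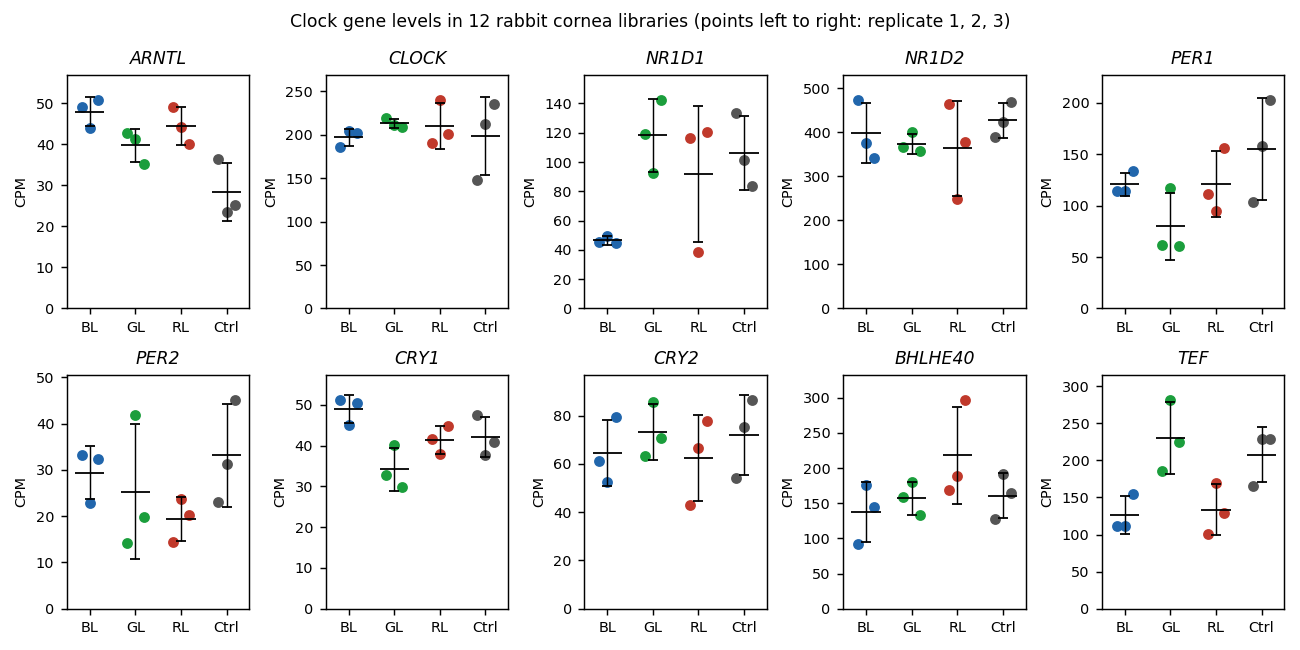
Level of each of the 10 clock genes in CPM (vertical axis, starting at 0) in groups BL, GL, RL and Ctrl. Points are libraries, horizontal lines are group means and bars are 1 SD (n = 3). NR1D1 lies between 44.6 and 49.7 CPM in BL and between 83.9 and 134 CPM in Ctrl, and ARNTL lies above every Ctrl library in 8 of 9 light libraries.

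ARNTL, the activator, averaged higher in all 3 light groups than in Ctrl, while its partner CLOCK averaged within the Ctrl spread in each. ARNTL stood at 49.1, 44.0 and 50.9 CPM in BL, at 42.7, 41.4 and 35.3 in GL, at 49.1, 44.2 and 40.0 in RL, and at 36.5, 23.6 and 25.3 in Ctrl. Of the 9 light libraries, 8 were above every Ctrl library, the exception being GL 3. Group means were 48.0 ± 3.56 CPM in BL, 39.8 ± 3.97 in GL, 44.4 ± 4.56 in RL and 28.5 ± 7.04 in Ctrl (SD, n = 3 each). The edgeR quasi-likelihood estimates were log2 0.75 ± 0.19 (SE) for BL against Ctrl (unadjusted p = 0.00179, Benjamini-Hochberg adjusted p = 1), 0.48 ± 0.19 for GL against Ctrl (0.0255, adjusted p = 0.601) and 0.64 ± 0.19 for RL against Ctrl (0.00531, adjusted p = 0.901). None passed the adjusted threshold of 0.05. The 3 comparisons share the same Ctrl libraries. BL and RL did not overlap with Ctrl, and GL did. Between light groups, every GL library lay below every BL library, at log2 −0.27 ± 0.19 for GL against BL (edgeR unadjusted p = 0.179, adjusted p = 0.510). With the library set as a covariate the estimate was 0.13. BL and GL each lie wholly in a single set, so the set effect is estimated from RL and Ctrl alone and carried over to them.

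ARNTL in Ctrl was uneven: Ctrl 1, at 36.5 CPM, lay nearer the light libraries than Ctrl 2 and Ctrl 3. Within the 5 libraries rich in rare transcripts, ARNTL stood at 44.0 to 50.9 CPM in BL and 49.1 in RL 1, against 36.5 in Ctrl 1. Within the other 7, it stood at 35.3 to 42.7 CPM in GL and at 44.2 and 40.0 in RL, against 23.6 and 25.3 in Ctrl. The first set holds only Ctrl 1 of the Ctrl libraries and no GL, and the second holds no BL. In each, the light libraries present lay above the Ctrl libraries present. The part of the library set in these ARNTL values was not tested. With the set as a covariate, its effect again taken from RL and Ctrl alone, the edgeR estimate for BL against Ctrl was log2 0.51.

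CLOCK stood at 186, 204 and 202 CPM in BL, at 219, 212 and 209 in GL, at 190, 240 and 201 in RL, and at 148, 212 and 235 in Ctrl. The Ctrl libraries alone spanned nearly the whole range. Every GL library lay above every BL library, although the estimate was log2 0.11 ± 0.17 (edgeR adjusted p = 0.809).

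NR1D1, the REV-ERB that represses ARNTL, was low in every BL library and in RL 2, and high in the other 8. It stood at 45.2, 49.7 and 44.6 CPM in BL, at 119, 92.5 and 143 in GL, at 116, 38.6 and 120 in RL, and at 134, 102 and 83.9 in Ctrl. No library lay between 49.7 and 83.9 CPM. Group means were 46.5 ± 2.82 CPM in BL, 118 ± 25.1 in GL, 91.8 ± 46.1 in RL and 106 ± 25.2 in Ctrl (SD, n = 3 each). BL did not overlap with Ctrl, at log2 −1.19 ± 0.35 (edgeR unadjusted p = 0.00446, adjusted p = 1). Over 22 alternatives the estimate lay between log2 −1.53 and −0.99. Within the 5 libraries rich in rare transcripts, BL stood at 44.6 to 49.7 CPM, against 116 in RL 1 and 134 in Ctrl 1. GL and RL each overlapped with Ctrl, and RL 2 lay far below RL 1 and RL 3.

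Between light groups NR1D1 averaged higher in GL than in BL by log2 1.35 ± 0.35, with no overlap (edgeR unadjusted p = 0.00201, adjusted p = 0.231). Over 22 alternatives the difference lay between log2 1.17 and 1.88. DESeq2 called this difference (adjusted p = 0.0159), and so did edgeR when RL 2 was left out (log2 1.36, adjusted p = 0.0390). The fit takes its spread from all 12 libraries, and RL 2 is in neither group compared. BL lies wholly in the 5 libraries rich in rare transcripts and GL wholly in the other 7. The group and the library set cannot be told apart in these 2 groups. Every GL library also had a larger total count than every BL library. RL against BL gave log2 0.98 ± 0.34 (edgeR unadjusted p = 0.0140, adjusted p = 0.910), with RL 2 below every BL library.

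NR1D2, its paralogue and also a repressor of ARNTL, did not follow the low NR1D1 of BL. It stood at 474, 376 and 343 CPM in BL, at 366, 400 and 357 in GL, at 464, 249 and 378 in RL, and at 390, 424 and 469 in Ctrl. All groups overlapped. RL 2, where NR1D1 was lowest of the 12 libraries, was also lowest for NR1D2.

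**Figure D2:**
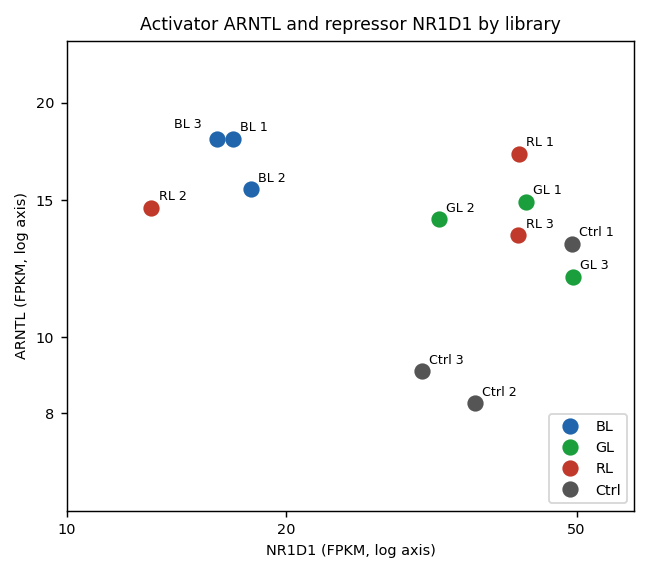
ARNTL (vertical axis, FPKM, log scale) against NR1D1 (horizontal axis, FPKM, log scale) in the 12 libraries, coloured by group. The BL libraries and RL 2 lie at the upper left with NR1D1 between 13.1 and 17.9 FPKM, and Ctrl 2 and Ctrl 3 lie lowest, with ARNTL at 8.23 and 9.05 FPKM.

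Because ARNTL activates NR1D1 and NR1D1 represses ARNTL, their ratio in FPKM was taken per library. The log2 ratio of ARNTL to NR1D1 was 0.089, −0.21 and 0.16 in BL, −1.51, −1.19 and −2.05 in GL, −1.28, 0.17 and −1.62 in RL, and −1.90, −2.14 and −1.76 in Ctrl. Both genes were thus at about equal FPKM in BL and in RL 2, and NR1D1 was the higher in the other 8 libraries. Group means were 0.015 ± 0.19 in BL, −1.58 ± 0.43 in GL, −0.91 ± 0.95 in RL and −1.93 ± 0.19 in Ctrl (SD, n = 3 each). This ratio is given as a description, with no test.

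Among the PER repressors, PER1 averaged lower in GL, where 2 of 3 libraries were the lowest of all 12. PER1, which also responds to glucocorticoids and to immediate signals, stood at 114, 115 and 134 CPM in BL, at 62.2, 117 and 60.3 in GL, at 111, 95.2 and 157 in RL, and at 104, 159 and 203 in Ctrl. GL 2 lay above Ctrl 1, so the groups overlapped. GL against Ctrl was log2 −0.96 ± 0.30 (edgeR unadjusted p = 0.00720, adjusted p = 0.507).

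Genes that respond quickly to signals were looked up beside PER1. Of 6 immediate early genes tested, 5 were lower in GL than in Ctrl, with a median of log2 −0.84. Of the 6, 0 passed the edgeR threshold, against 0.055% of all genes, and 2 had an unadjusted p below 0.05, against 8.1%. FOS, a subunit of the AP-1 transcription factor, stood at 87.0, 74.3 and 120 CPM in GL, against 579, 686 and 167 in Ctrl (log2 −2.35 ± 0.55, edgeR adjusted p = 0.333). EGR1, an early growth response factor, was at log2 −0.86 ± 0.38 (edgeR adjusted p = 0.610). The 6 glucocorticoid targets tested had a median of log2 −0.68 in GL against Ctrl. Of these, 0 passed the edgeR threshold, against 0.055% of all genes, and 1 had an unadjusted p below 0.05, against 8.1%. That was DUSP1, a phosphatase of MAP kinases, which stood at 43.8, 96.8 and 69.7 CPM in GL, against 303, 335 and 91.3 in Ctrl (log2 −1.79 ± 0.52, edgeR adjusted p = 0.475). SGK1, a kinase, differed little, at 309, 352 and 283 CPM in GL, against 320, 358 and 272 in Ctrl. Of the 6 targets, 1 did not overlap in GL against Ctrl, beside 18.5% of all genes. It was FKBP5, at 32.9, 15.6 and 38.4 CPM in GL, against 48.7, 73.8 and 98.9 in Ctrl. In RL against Ctrl the immediate early genes had a median of log2 0.62. Of these 6, 0 passed the edgeR threshold and 0 had an unadjusted p below 0.05, against 0.011% and 4.74% of all genes. RL 3 was the highest RL library for all 6: ATF3, a stress-induced factor, stood at 56.3, 67.2 and 449 CPM in RL, against 107, 137 and 83.9 in Ctrl. PER1 in RL was at log2 −0.36 ± 0.30 (edgeR adjusted p = 1). The part of these signals in the PER1 values was not tested.

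PER2 stood at 33.2, 22.8 and 32.3 CPM in BL, at 14.2, 41.8 and 19.8 in GL, at 14.3, 23.6 and 20.3 in RL, and at 23.0, 31.3 and 45.1 in Ctrl. All groups overlapped, and GL alone spanned nearly the whole range.

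CRY1, a cryptochrome that holds back the activator pair, was at the high end in BL and at the low end in GL. It stood at 51.2, 45.2 and 50.6 CPM in BL, at 32.7, 40.1 and 29.9 in GL, at 41.6, 38.0 and 44.9 in RL, and at 47.5, 37.8 and 41.0 in Ctrl. GL did not overlap with BL (log2 −0.52 ± 0.17, edgeR unadjusted p = 0.00906, adjusted p = 0.259), nor did RL (log2 −0.24 ± 0.17, adjusted p = 0.957). CRY1 also moved with the library sets, at 41.6 to 51.2 CPM in the 5 libraries rich in rare transcripts and 29.9 to 44.9 in the other 7. With the set as a covariate, GL against BL was log2 −0.38 (edgeR adjusted p = 0.801), the set effect being taken from RL and Ctrl alone.

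CRY2, the second cryptochrome, stood at 61.3, 52.6 and 79.6 CPM in BL, at 63.1, 85.7 and 70.6 in GL, at 42.9, 66.7 and 77.6 in RL, and at 54.1, 75.4 and 86.5 in Ctrl, so every pair of groups overlapped. An unnamed gene on the opposite strand overlaps it, with 8 to 68 counts per library against 1978 to 5148 for CRY2. Reads of the 2 cannot be told apart where strand was not used, and the sources used here do not state it.

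TEF and BHLHE40 are outputs of the loop. TEF, a PAR bZIP transcription factor that binds D-box elements, averaged lower in BL and RL than in GL and Ctrl. It stood at 112, 112 and 155 CPM in BL, at 185, 281 and 225 in GL, at 101, 169 and 129 in RL, and at 165, 229 and 229 in Ctrl. BL against Ctrl was log2 −0.72 ± 0.23 with no overlap (edgeR unadjusted p = 0.00915, adjusted p = 1), and RL against Ctrl was log2 −0.64 ± 0.23 with overlap (0.0170, adjusted p = 1). Every GL library exceeded every BL library (GL against BL log2 0.87 ± 0.23, adjusted p = 0.241) and every RL library (RL against GL log2 −0.79 ± 0.23, adjusted p = 0.455). DESeq2 called the difference between GL and BL (adjusted p = 0.0295). With the library set as a covariate, the edgeR estimates were log2 −0.36 for BL against Ctrl and 0.35 for GL against BL. The set effect in them comes from RL and Ctrl alone, because BL and GL each lie wholly in a single set. TEF stood at 101 to 165 CPM in the 5 libraries and 129 to 281 in the 7.

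BHLHE40, a repressor also known as DEC1, stood at 92.3, 176 and 144 CPM in BL, at 159, 180 and 133 in GL, at 169, 188 and 297 in RL, and at 127, 191 and 164 in Ctrl. RL 3 lay far above the rest. RL against BL was log2 0.67 ± 0.27 with overlap (edgeR unadjusted p = 0.0284, adjusted p = 0.927).

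**Figure D3:**
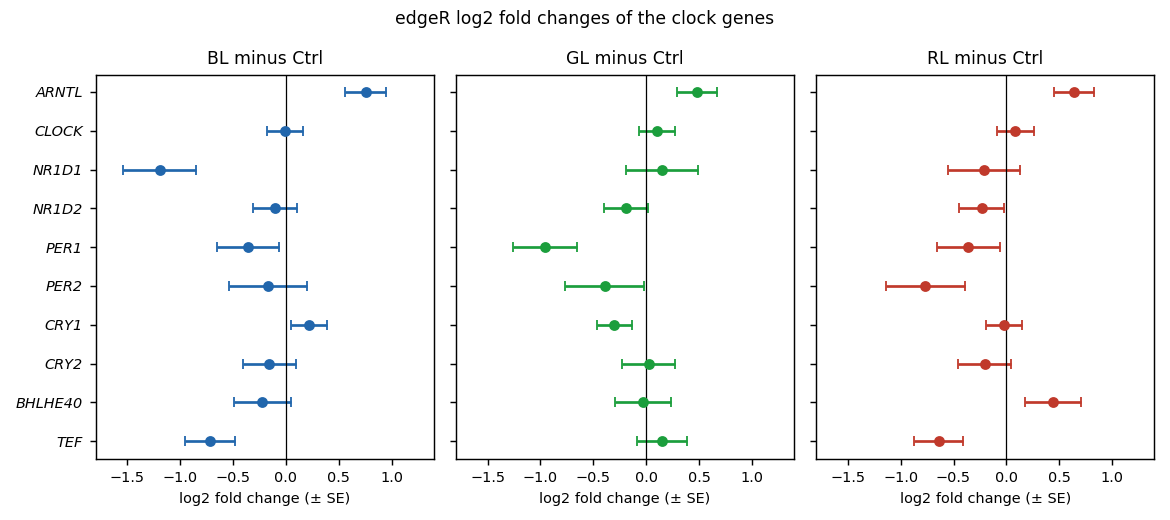
Estimated log2 fold change of each clock gene (bars are 1 SE) for BL, GL and RL against Ctrl, from the edgeR fit. ARNTL lies right of 0 in all 3 comparisons, NR1D1 lies at −1.19 in BL, and no gene passed the adjusted threshold.

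Counted over the 10 members, 0 passed the edgeR threshold in BL against Ctrl, where 0.0165% of 18171 genes did, and 3 had an unadjusted p below 0.05 (ARNTL, NR1D1, TEF), where 3.26% of all genes did. Those 3 were also the members that did not overlap, against 9% of all genes. In GL against Ctrl, 0 passed, where 0.055% of genes did, 2 had an unadjusted p below 0.05 (ARNTL, PER1) against 8.1% of genes, and 0 did not overlap against 18.5%. In RL against Ctrl, 0 passed, where 0.011% did, 2 had an unadjusted p below 0.05 (ARNTL, TEF) against 4.74%, and 1 (ARNTL) did not overlap against 8.32%. For the mean of the light groups against Ctrl, 0 passed, where 0.011% did, and 3 members had an unadjusted p below 0.05 against 4.2% of genes. These were ARNTL (log2 0.63 ± 0.16, edgeR adjusted p = 0.864), PER1 (−0.56 ± 0.23, adjusted p = 1) and TEF (−0.40 ± 0.19, adjusted p = 1). DESeq2 also called 0 members in these 4 comparisons, where it called 0.16%, 0.809%, 0.446% and 0.292% of all genes. Limma on log2(FPKM + 1) called 0 members too, where it called 0.0165%, 0.055%, 0.0055% and 0.011%.

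Between light groups, 0 members passed the edgeR threshold. In GL against BL, 0.0495% of all genes did, 3 members had an unadjusted p below 0.05 against 14.9% of genes, and 5 did not overlap against 26.9%. For RL against BL the share passing was 0.011%, with 2 members at an unadjusted p below 0.05 against 5.14%, and 1 that did not overlap against 8.99%. For RL against GL it was 0.0715%, with 1 member at an unadjusted p below 0.05 against 8.6%, and 1 that did not overlap against 13.2%. DESeq2 called 2 members, NR1D1 and TEF, in GL against BL, where it called 2.11% of all genes, and 0 in RL against BL (0.424%) and in RL against GL (1.08%). Limma called 0 members in each, where it called 0.044%, 0.033% and 0.11% of genes. Asked for any difference among the 4 groups, edgeR called 0 members, where 0.0605% of genes passed. ARNTL, NR1D1 and TEF had an unadjusted p below 0.05 there, against 7.79% of genes. DESeq2 called 1, TEF (adjusted p = 0.0226), and 1.47% of all genes, and limma called 0, with 0.121% of all genes.

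Correlations were taken over the 12 libraries between log2(CPM + 1) of each of the 45 pairs. Of these, 22 were positive and 23 negative, and the median r was −0.027. None passed at an adjusted p below 0.05 by Pearson or Spearman correlation, with 5 and 7 pairs at an unadjusted p below 0.05 (100000-resample permutation tests, Benjamini-Hochberg over 45 pairs). The libraries share tissue, preparation and the 2 sets above.

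ARNTL and NR1D1 had r = −0.40 (permutation p = 0.194, adjusted p = 0.543) and rho = −0.55 (p = 0.0707, adjusted p = 0.318). Without Ctrl 2 and Ctrl 3, the libraries farthest from the median of ARNTL, r was −0.67 (permutation p = 0.0423, adjusted p = 0.466). Within groups, as residuals from the group means, r was 0.12 (permutation p = 0.720). As residuals from group and replicate number it was −0.21, so the sign within groups depended on the setting. In the 7 libraries with fewer rare transcripts r was −0.18.

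ARNTL gave r = −0.22 with CLOCK (permutation p = 0.479, adjusted p = 0.666; rho = −0.31, p = 0.331), −0.27 with NR1D2 (p = 0.390, adjusted p = 0.630; rho = −0.21, p = 0.514) and −0.39 with PER1 (p = 0.209, adjusted p = 0.543; rho = −0.25, p = 0.444). With PER2 it was −0.37 (permutation p = 0.238, adjusted p = 0.543; rho = −0.11, p = 0.733) and with CRY1 0.35 (p = 0.265, adjusted p = 0.543; rho = 0.50, p = 0.0966). Without Ctrl 2 and Ctrl 3 the values with CLOCK, NR1D2, PER1 and PER2 were 0.20, 0.17, 0.42 and 0.16, so these 4 negative signs rested on those libraries, and the value with CRY1 was 0.51. In the 7 libraries with fewer rare transcripts the value with CRY1 was −0.11.

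Pairs with an unadjusted p below 0.05 are named here after their values were seen. CRY2 and TEF had r = 0.72 (permutation p = 0.00902, adjusted p = 0.323; rho = 0.69, p = 0.0159), and 0.48 without BL 2 and RL 1 (p = 0.155). PER2 and CRY2 had r = 0.68 (permutation p = 0.0151, adjusted p = 0.323; rho = 0.60, p = 0.0422), and 0.49 without Ctrl 3 and GL 2 (p = 0.146). Both values stayed positive on the 10 libraries, at a smaller r and with no unadjusted p below 0.05. As residuals from the group means the pair CRY2 and TEF gave r = 0.84 (exact permutation p = 0.0108, adjusted p = 0.162) and PER2 and CRY2 gave 0.77 (0.00463, adjusted p = 0.162). In the 7 libraries they gave 0.42 and 0.88. Levels of CRY2 and TEF also moved with the number of rare transcripts over all libraries, with r of −0.61 and −0.66.

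PER1 and PER2 had r = 0.63 (permutation p = 0.0266, adjusted p = 0.323; rho = 0.62), ARNTL and TEF −0.62 (permutation p = 0.0287, adjusted p = 0.323; rho = −0.68), and PER1 and CRY1 0.58 (permutation p = 0.0451, adjusted p = 0.406; rho = 0.31). Without the 2 farthest libraries these were 0.46, −0.55 and −0.14, with permutation p = 0.178, 0.103 and 0.706. The value of PER1 and CRY1 rested on GL 1 and GL 3, which were left out there, while the other 2 kept their sign. ARNTL and TEF gave −0.40 as residuals from the group means but 0.38 as residuals from group and replicate number.

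By rank, the pair with the smallest p was CLOCK and CRY1, with rho = −0.72 (permutation p = 0.0102, adjusted p = 0.229) and r = −0.50 (p = 0.101, adjusted p = 0.543). Its r was −0.50 without Ctrl 1 and RL 2, and 0.014 in the 7 libraries with fewer rare transcripts. CLOCK and TEF had rho = 0.65 (permutation p = 0.0254, adjusted p = 0.229; r = 0.38), and CRY1 and TEF had rho = −0.65 (p = 0.0249, adjusted p = 0.229; r = −0.55). These 3 genes are among those whose levels moved with the library sets, with r of −0.66 for CLOCK, 0.76 for CRY1 and −0.66 for TEF with the number of rare transcripts over the 12 libraries.

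**Figure D4:**
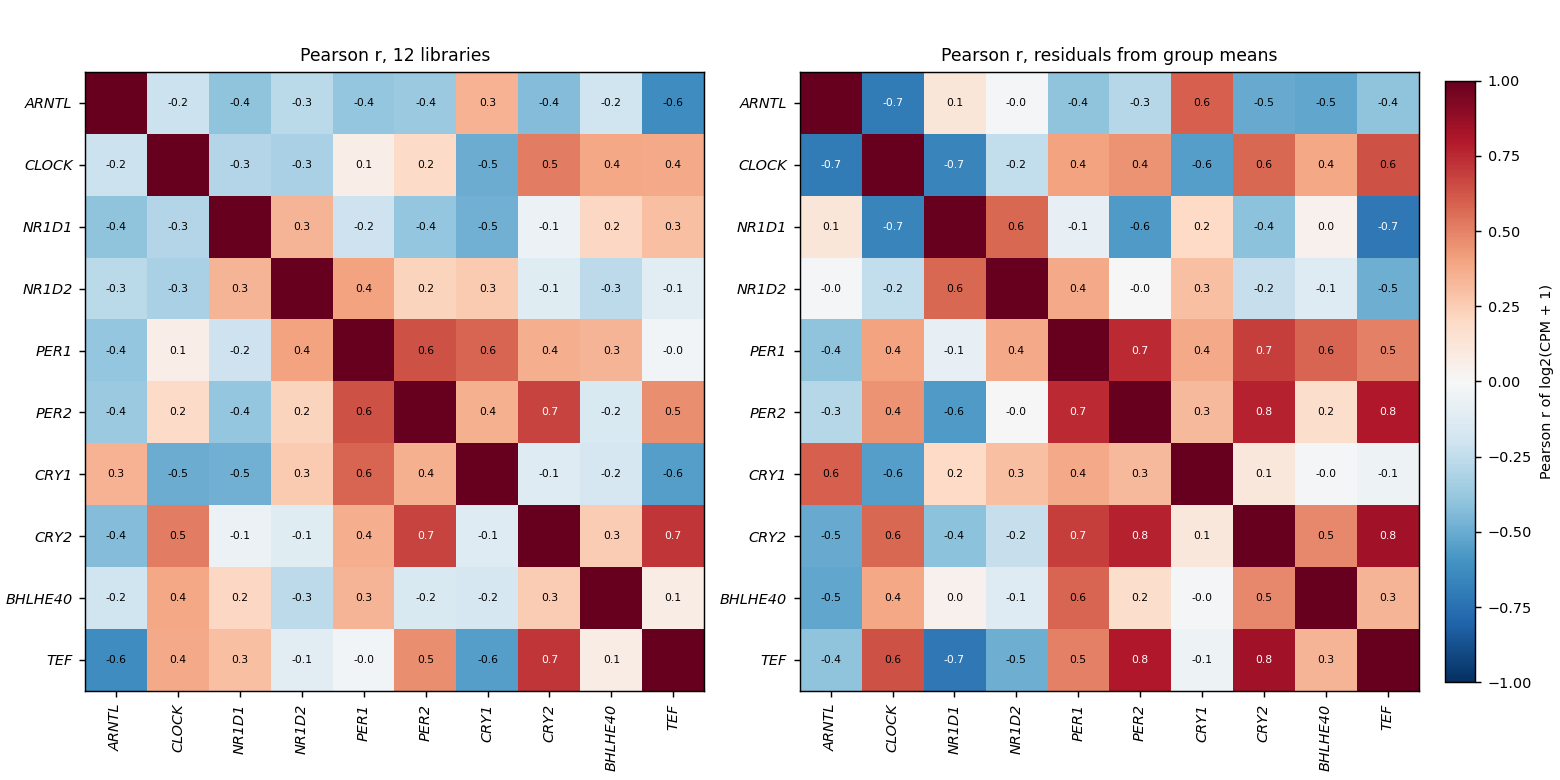
Pearson r of log2(CPM + 1) between pairs of clock genes, over the 12 libraries (left) and for residuals from group means (right); the colour scale runs from −1 to 1. CRY2 and TEF have the highest value at left, 0.72, and ARNTL with NR1D1 is −0.40 at left and 0.12 at right.

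Among 9977 named genes with a mean of at least 5 CPM, those most like ARNTL over the 12 libraries were TMA16 (r = 0.93), the mitotic kinesin KIF2C (0.91), the ribosomal protein gene RPL23A (0.91), the spindle gene TPX2 (0.90) and USP12 (0.89). Those least like it were LPL, lipoprotein lipase (−0.92), GPN3 (−0.85), NME4 (−0.84), ZCCHC9 (−0.83) and TBC1D13 (−0.82). RPL23A stood at 28.7 and 32.9 CPM in Ctrl 2 and Ctrl 3, against 433 to 1085 in the other libraries, and USP12 at 30.0 and 31.8 in the same 2 libraries. Of the clock genes among them, GSK3B had the highest r with ARNTL (0.77) and KLF9 the lowest (−0.74). GSK3B stood at 9.63 and 10.4 CPM in Ctrl 2 and Ctrl 3, against 28.1 to 105 in the other libraries. Ctrl 2 and Ctrl 3 are also the lowest libraries for ARNTL.

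The genes most like NR1D1 were ZBED2 (r = 0.93), ABCB6 (0.89), SLC26A11 (0.86), ITIH5 (0.86) and the keratin KRT8 (0.85), and those least like it were B4GALNT3 (−0.90), LIPH (−0.88), ARHGAP18 (−0.80), ZNF410 (−0.80) and ARID1A (−0.80). ZBED2 stood at 8.64, 13.6 and 6.97 CPM in BL and 5.08 in RL 2. These r are descriptions over 12 libraries, with no test.

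Other clock genes were taken from a list of 30, of which 27 were found; DBP, CSNK1E and FBXL21 were not analysed here. ARNTL2, a relative of ARNTL, was at 0 in every library, and 26 genes were tested. By edgeR 0 were called in BL, GL or RL against Ctrl, where 0.0165%, 0.055% and 0.011% of all genes were. In the same order, 0, 7 and 4 did not overlap, against 9%, 18.5% and 8.32% of all genes. Those with an edgeR unadjusted p below 0.05 numbered 0, 2 and 1, against 3.26%, 8.1% and 4.74%. HLF, a PAR bZIP factor like TEF, averaged 252 ± 50.4 CPM in BL, 244 ± 16.7 in GL, 236 ± 3.88 in RL and 309 ± 27.8 in Ctrl (RL against Ctrl log2 −0.39 ± 0.16, edgeR unadjusted p = 0.0321, adjusted p = 1). The other 2 were PER3, with at most 24 counts in any library, and PRKAA2, a kinase subunit at 0 in every GL library and at most 46 counts in Ctrl.

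NPAS2, which can stand in for CLOCK, averaged 48.9 ± 3.02 CPM in BL, 57.4 ± 11.5 in GL, 56.4 ± 6.44 in RL and 45.1 ± 2.85 in Ctrl. CIART, a repressor of the ARNTL and CLOCK pair, averaged 16.9 ± 5.20 CPM in BL, 11.3 ± 3.80 in GL, 11.0 ± 5.77 in RL and 18.2 ± 2.22 in Ctrl. Its lowest library was RL 2, at 4.31 CPM, the library lowest for NR1D1 and NR1D2. RORA, which activates ARNTL, averaged 52.8 CPM in BL, 36.0 in GL, 56.9 in RL and 49.6 in Ctrl. NFIL3, a D-box repressor, ranged from 4.92 to 8.52 CPM in BL, 5.57 to 8.39 in GL, 3.47 to 14.9 in RL and 5.39 to 6.55 in Ctrl. BHLHE41, the relative of BHLHE40, averaged 5.62 CPM in BL, 7.68 in GL, 5.28 in RL and 6.90 in Ctrl.

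The table places 7 members on chromosomes: ARNTL at 1:155097314-155171188 and CRY2 at 1:185198872-185230124, CRY1 at 4:89377247-89471315, NR1D2 at 14:10293272-10329084 and CLOCK at 15:93327064-93404475, all on the plus strand, with NR1D1 at 19:41291446-41298795 on the minus strand and PER1 at 19:11095197-11109696 on the plus strand. PER2, BHLHE40 and TEF lie on unplaced scaffolds. Coordinates span whole genes and follow the deposited table, whose build is not given by name in the sources used here.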

How the data were processed

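Estimated counts and FPKM per gene and library were deposited by the authors, per the file headers. RNA was extracted with RNeasy and libraries were made with a SMARTer kit, per the labels' protocols. The submitters' processing notes name GRCm38 and mm10, a mouse build, whereas the table uses rabbit sequences; chromosome numbers were read from those sequence names. The aligner is not given in the sources used here. Counts were whole, so rounding moved nothing, but low values pile up in steps (2679 values of 4, 851 of 3 and 626 of 5), so they are not raw reads. A zero count carries an FPKM of 0.0001.

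edgeR 4.0.16 (R 4.3.3) was fitted to all 12 libraries with 4 group means, TMM scaling and filterByExpr. Benjamini-Hochberg adjustment covered 18171 genes. CPM are TMM-scaled. The procedure was tested on simulated data. Alternatives used DESeq2 1.42.0, limma 3.58.1, other filters and covariates, and left out libraries. For members, folds were printed at an unadjusted p below 0.05 or without overlap; likeness took 5 genes on each side. Members and lists were chosen with earlier results of these data known. FOS, EGR1, ATF3, DUSP1, SGK1, FKBP5, GSK3B and KLF9 were named after their values were seen. The RefSeq gene table (assembly mOryCun1.1, names only) held all 10 member identifiers, 9 under the same symbol, with ARNTL as BMAL1.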

Additional observations from a re-analysis of the deposited data

Results flagged for a closer look

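CRY1 stood out because BL and GL lay on opposite sides of the Ctrl mean. Every BL library (51.2, 45.2 and 50.6 CPM) was above the Ctrl mean of 42.1 CPM and every GL library (32.7, 40.1 and 29.9 CPM) was below it. The difference of GL from BL was log2 −0.52 by edgeR, with an adjusted p of 0.259, so it did not pass the threshold. BL belongs wholly to the 5 libraries rich in rare transcripts and GL wholly to the other 7, so the group and the library set cannot be told apart in these 2 groups. Every GL library also had a larger total count than every BL library, and CRY1 had r = −0.63 with log2 of the total count.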

How the results depend on the processing

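The count of members called stayed at 0 in 171 of 174 alternatives. The exceptions were DESeq2, with 2 members in GL against BL and 1 for any difference among groups, and edgeR without RL replicate 2, with 1 in GL against BL. Leaving out each library in turn gave 0 to 1 members in GL against BL. Of 352 alternatives of 16 fold changes, 3 changed sign: ARNTL in GL against BL was log2 0.13 with the set covariate, and CLOCK there was −0.061 with library size and −0.29 with the set covariate. The set effect is estimated from RL and Ctrl alone, so the changes with that covariate do not separate group from set in GL and BL. ARNTL correlations changed sign without Ctrl 2 and Ctrl 3 (0.20 with CLOCK, 0.17 with NR1D2, 0.42 with PER1, 0.16 with PER2), as group residuals (0.12 with NR1D1) with a replicate block (0.20 with PER2, 0.056 with CRY2, 0.38 with TEF) and in the 7 libraries (−0.11 with CRY1, 0.15 with BHLHE40). Over all 45 pairs, 11, 7, 15 and 12 changed sign in these 4 settings. The cause was not tested.

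DESeq2 called more genes in all: 29 in BL, 147 in GL and 81 in RL against Ctrl, against 3, 10 and 2 by edgeR, and 383, 77 and 197 in GL against BL, RL against BL and RL against GL, against 9, 2 and 13, with 53 for the mean of the light groups (edgeR 2) and 267 for any difference (edgeR 11). Other counts that moved by over 1.5 times, in BL, GL and RL against Ctrl, were 7, 28 and 5 when only the groups compared were fitted. Without the 3 libraries highest in retinal genes, 1, 1 and 2 genes were called against Ctrl, 1 for the mean, 0, 1 and 2 between light groups, and 0 for any difference. In GL against BL, library size as a covariate left 2, the set covariate 0 and limma on log2(FPKM + 0.1) gave 15. In RL against BL, no filter gave 5 and limma 6 with a pseudocount of 1 or 9 with 0.1. In RL against GL, fitting only those groups gave 3 and limma 20. Library size left 5 in GL against Ctrl and 6 for any difference, where no filter and limma gave 22. Limma gave 5 in BL against Ctrl with 0.1 and 1 in RL against Ctrl with 1. Leave-one-out ranges by edgeR, over all genes, were 2 to 10, 3 to 21 and 2 to 9 against Ctrl, and 3 to 22, 2 to 5 and 5 to 25 between light groups, in the orders above, 2 to 9 for the mean and 5 to 25 for any difference. Same-numbered libraries deviated with a median r of 0.038 (−0.11 to 0.39) and differently numbered ones with −0.032. Pairs within number 1 were all positive (0.026 to 0.39), and pairs within number 2 and within number 3 had both signs (−0.11 to 0.20). BL 1, RL 1 and Ctrl 1 are also in the same library set. The numbers were not taken to pair samples, and the replicate block called 0 members in every comparison. Sequence motifs were not searched.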
